A study of Homo sapiens with 6 samples.

Results

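Assembly of spliceosomal small nuclear ribonucleoproteins (snRNPs) in the cytoplasm was followed through 10 genes, GEMIN2, GEMIN4, GEMIN5, GEMIN6, GEMIN7, GEMIN8, DDX20, STRAP, CLNS1A and PRMT5, chosen by name from the 63190 gene identifiers of the deposited table. All transcripts listed under these genes were taken, 85 of 207167, and 52 of them had a mean of at least 1 RPKM (reads per kilobase of transcript, scaled to sequencing depth) over the 6 libraries. The libraries were rRNA-depleted RNA-seq of HEK293 cells, a human embryonic kidney line. In 3 of them the D391N mutant of DIS3L2 was overexpressed, and 3 were controls. DIS3L2 is a cytoplasmic 3′ to 5′ exoribonuclease that degrades uridylated RNA, and D391N removes its catalytic activity. By the study's methods the mutant was a stably integrated, doxycycline-inducible construct with a Flag tag in HEK293T-Rex cells, and the controls were HEK293T-Rex FlipIn cells. No deletion of endogenous DIS3L2 is named for either group. Whether the control cells received doxycycline was not stated, so the construct, its line and the drug cannot be told apart. The methods describe 3 RNA-seq libraries pooled in 1 lane, and 6 are listed here. Which libraries shared a lane was not stated, so lane cannot be told apart from group or replicate number. The labels number the libraries 1 to 3 in each group without naming separate cultures, so the p-values below measure only the spread between these libraries.

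Spliceosomal snRNAs leave the nucleus, receive a ring of Sm proteins in the cytoplasm and return as snRNPs. The methylosome, formed by the arginine methyltransferase PRMT5 with WDR77 and the chaperone CLNS1A (pICln), methylates and holds newly made Sm proteins. The SMN complex, built from SMN, the Gemin proteins and STRAP (unrip), then places them on the snRNA. Dividing cells need this route throughout to supply their spliceosomes.

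DIS3L2 itself was listed at 369, 467 and 512 RPKM in D391N libraries 1, 2 and 3 and at 11.8, 12.9 and 14.6 RPKM in the controls, which matches the labels (log2 fold change 5.08, limma adjusted p = 0.000268). With each transcript weighted by its length, the log2 fold change was smaller, at 2.92 (limma adjusted p = 0.00113), and in the same direction. The HEK293 markers KRT8, KRT18, VIM and LIN28B reached at least 15.8 RPKM in each library, while PAX2 reached 1.93, NES 1.34 and NEFM 0.638 RPKM at most. Markers of other cells peaked at 1.77 RPKM for PTPRC, 1.13 for ALB, 0.738 for COL3A1, 4.05 for COL1A1 and 7.12 for HBB. Total read numbers are not part of the values. The level listed for 45074 transcripts without reads placed the libraries within 1.62-fold of each other in relative depth. The median distance of isoform shares (defined below) of D391N library 1 was 15.2 to 16.1% from the control libraries and 20.1 and 23.9% from the other D391N libraries. Library 3 was 18.6 to 19.8% from the controls and 19.4 and 20.1% from its own group, and library 2 was 25.6 to 26.5% and 19.4 and 23.9%. Library 2 also had the lowest correlations with the controls (Pearson r 0.824 to 0.865 across genes, against 0.90 to 0.956 for libraries 1 and 3). Genes and transcripts that passed without library 1 are given both ways, and isoform ratios that did so are only counted. None of the 10 genes or their transcripts passed without library 2 or without library 3.

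Some isoforms on which the results turn differ by short stretches, printed here from the GENCODE transcript sequences by transcript ID (positions in GRCh37). The first pair shows where a short retained-intron transcript leaves the spliced exon, with the intronic bases in capitals. CLNS1A-203 holds 40 bases of intron at chr11:77333505-77333544 on the minus strand, and PRMT5-208 holds 25 at chr14:23395690-23395714 on the minus strand. No other listed transcript of either gene has these bases in an exon.
CLNS1A-203: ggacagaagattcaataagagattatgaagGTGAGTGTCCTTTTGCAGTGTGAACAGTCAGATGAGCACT
PRMT5-208: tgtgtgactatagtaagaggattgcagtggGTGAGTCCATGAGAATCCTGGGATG
The next pair shows coding exon junctions found in 1 CLNS1A transcript each, with the 30 bases after the junction in capitals, at chr11:77333689-77333718 for CLNS1A-211 and chr11:77330711-77330740 for CLNS1A-202.
CLNS1A-211: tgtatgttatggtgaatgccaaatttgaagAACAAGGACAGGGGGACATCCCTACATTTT
CLNS1A-202: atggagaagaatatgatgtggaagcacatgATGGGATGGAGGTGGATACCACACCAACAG
The last shows a coding exon of 39 bases, in capitals, found in STRAP-201 and not in STRAP-202, at chr12:16036017-16036055 on the plus strand. The exon is not their only difference, as STRAP-201 has 1442 nt and STRAP-202 has 1874 nt.
STRAP-201: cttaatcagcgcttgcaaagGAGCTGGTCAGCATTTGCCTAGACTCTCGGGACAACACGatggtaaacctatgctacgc
Reads that fall on sequence shared between isoforms are divided between them by the authors' model. Of the 234 windows of 50 bases in CLNS1A-203, the length of the reads, 40 occur in no other CLNS1A transcript.

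None of the 10 genes passed the test on their summed RPKM (limma, Benjamini-Hochberg adjusted p under 0.05), against 0.14% of the 20714 genes tested. PRMT5 and GEMIN7 had unadjusted p-values under 0.05, both lower in D391N, and the share of all genes at that level was 22.7% in either direction and 16% lower. Over the 10 genes adjusted p-values ran from 0.0924 to 0.99. In 4 of the 10, PRMT5, GEMIN7, GEMIN4 and CLNS1A, every D391N library lay below every control, as in 20.7% of all genes. In none did every D391N library lie above, as in 10.5% of all genes. The median log2 fold change over the 10 was -0.10 and over all genes -0.09, with 57.3% of all genes below 0. Centring each library on its median moved the median of all genes by 0.22, to 0.13, and that of the 10 to 0.12. The fold changes below are to be read against this general value.

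**Figure D1:**
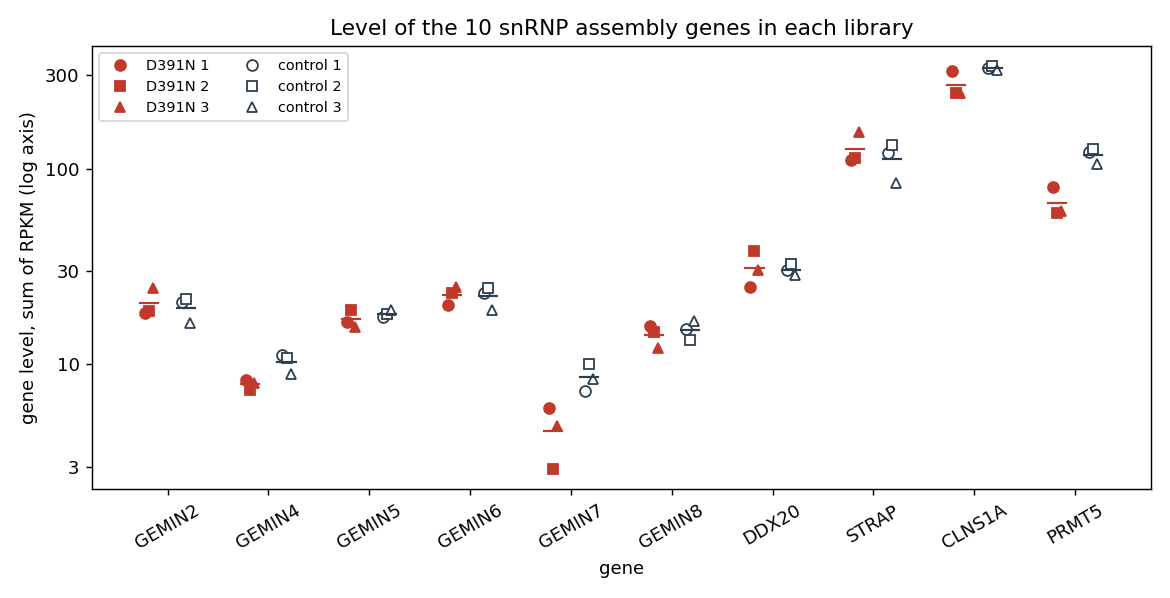
Summed RPKM (log axis) of each of the 10 genes in the 6 libraries, filled red for D391N and open for controls, with 1 symbol per replicate number and a line at each group mean. PRMT5, GEMIN7, GEMIN4 and CLNS1A have all D391N points below all control points, and the other 6 genes overlap.

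PRMT5, which symmetrically dimethylates the arginine-rich tails of Sm proteins, had the smallest p of the 10 genes (GRCh37 chr14:23389734-23398617, minus strand). Its level was 80.2, 59.5 and 61.0 RPKM in D391N libraries 1, 2 and 3, and 121, 126 and 105 RPKM in the controls. The highest D391N library was thus under the lowest control. In RNA from bulk cells, fewer expressing cells and less RNA per cell cannot be told apart. The difference was 1.77-fold, a log2 fold change of -0.82 (SE 0.17, 95% interval -1.24 to -0.40, limma adjusted p = 0.0924). Over the alternatives it stayed below 0, between -0.96 and -0.45, with adjusted p from 0.0236 to 0.304.

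PRMT5 passed the threshold in 2 of those alternatives. Without D391N library 1 the log2 fold change was -0.96 (adjusted p = 0.0236), in a fit that called 10.9% of all genes. When each transcript was weighted by its length, which follows the reads of the gene rather than its number of molecules, the levels were 59.0, 45.2 and 59.6 RPKM × kb in D391N against 106, 102 and 81.5 in the controls. That log2 fold change was again -0.82 (adjusted p = 0.0434), in a fit that called 3.49% of 18536 genes. Without transcripts under 300 nt it was -0.45 (adjusted p = 0.148).

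Ratios within a library do not depend on how libraries were scaled. PRMT5 over WDR77, its obligate partner in the methylosome, was 4.81, 4.28 and 3.80 in D391N and 7.08, 7.16 and 10.5 in the controls. PRMT5 over PRMT1, the main asymmetric arginine methyltransferase, was 0.412, 0.423 and 0.374 against 0.585, 0.567 and 0.576. Neither ratio overlapped between the groups (exact permutation test, two-sided p = 0.1 for each, the smallest that 3 against 3 libraries allow). These ratios were chosen after the levels had been seen.

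The PRMT5 transcripts differed in their pattern across libraries. PRMT5-208, the short retained-intron transcript whose intronic end is printed above (259 nt), was listed at 23.7, 1.28 and 0.569 RPKM in D391N and at 30.1, 40.6 and 39.7 RPKM in the controls. All D391N values were lower, but library 1 was close to the lowest control while libraries 2 and 3 held under 1 read-equivalent each, an estimate from the deposited posterior variance. Its log2 fold change was -3.71 (SE 1.23, adjusted p = 0.215), with adjusted p up to 0.476 in the alternatives. Without D391N library 1 it was -5.25 (adjusted p = 0.00418), in a fit that called 9.07% of all transcripts.

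PRMT5-213, a coding transcript of 1857 nt, was at 2.17, 3.68 and 4.70 RPKM in D391N and at 14.6, 14.2 and 8.40 RPKM in the controls. All D391N libraries were below all controls here, library 1 included (log2 fold change -1.81, SE 0.38, adjusted p = 0.125). The share of all transcripts separated in this way is not given, for this transcript or for others named in this report. Among all genes, the summed level lay below the controls in every D391N library in 20.7%. PRMT5-219, another coding transcript, was at 3.88, 0.786 and 1.70 RPKM against 14.9, 10.1 and 9.52 RPKM (log2 fold change -2.62, SE 0.55, adjusted p = 0.125). Without D391N library 1, PRMT5-213 was at -1.51 (adjusted p = 0.0476) and PRMT5-219 at -3.17 (adjusted p = 0.0143). That fit called 9.07% of all transcripts. PRMT5-219 has 49 windows of its own and PRMT5-213 only 7, and PRMT5-219 rested on 0.0935 to 0.824 read-equivalents in the D391N libraries, so its size there is poorly fixed. With all 6 libraries, the adjusted p of 0.125 was the lowest among the transcripts of the 10 genes.

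PRMT5-210, a coding transcript with no 50-base window of its own, was at 7.20, 18.0 and 18.7 RPKM in D391N and 17.2, 19.0 and 16.3 RPKM in the controls, so that only D391N library 1 stood apart. Added over all 16 protein-coding transcripts, PRMT5 was at 49.9, 54.0 and 51.3 RPKM in D391N and at 85.8, 78.8 and 60.9 RPKM in the controls. The coding part thus lay lower in each D391N library, with little spread among them (51.8 ± 2.09 against 75.2 ± 12.9 RPKM, SD, n = 3 each, exact permutation p = 0.1). The 4 retained-intron transcripts together were at 26.9, 2.94 and 1.47 RPKM against 32.6, 43.7 and 41.0 RPKM.

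CLNS1A encodes pICln, the chaperone that keeps Sm proteins from assembling before they reach the SMN complex (GRCh37 chr11:77225981-77348839, minus strand). It was the most abundant of the 10 genes, at 314, 244 and 243 RPKM in D391N and 327, 334 and 320.0 RPKM in the controls. The D391N values were all lower, library 1 by little. The log2 fold change of -0.30 (SE 0.18, adjusted p = 0.354) did not pass, and its direction turned with the way transcripts were added up. It was 0.06 when weighted by length (adjusted p = 0.794) and 0.29 over transcripts of at least 300 nt (adjusted p = 0.377).

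**Figure D2:**
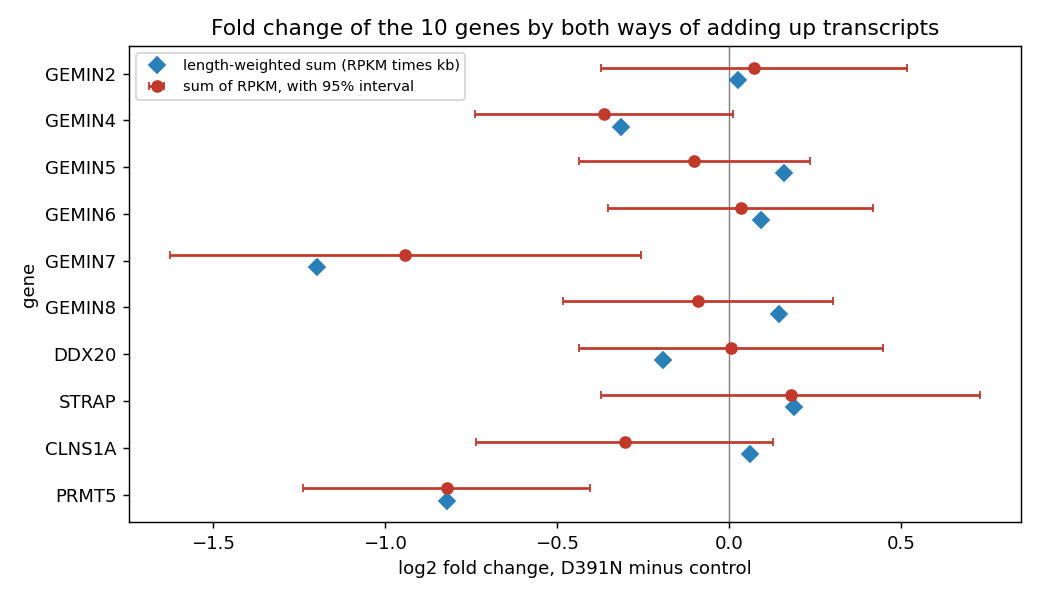
Log2 fold change (D391N minus control) of the 10 genes from summed RPKM (red, with 95% interval) and from the length-weighted sum (blue diamonds, no interval drawn). PRMT5 is at -0.82 by both, GEMIN7 moves from -0.94 to -1.20, and CLNS1A crosses from -0.30 to 0.06.

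The isoforms of CLNS1A differed far more than their sum. CLNS1A-203, the retained-intron transcript of 283 nt, was at 152, 5.68 and 8.77 RPKM in D391N and at 155, 161 and 155 RPKM in the controls. It took 48.6, 2.33 and 3.62% of the gene in D391N and 47.6, 48.2 and 48.3% in the controls. D391N library 1 lay next to the narrow range of the controls, while libraries 2 and 3 were more than an order of magnitude lower. The log2 fold change was -2.98 (SE 1.16, adjusted p = 0.258). Without D391N library 1 it was -4.46 (SE 0.26, adjusted p = 0.00313), in a fit that called 9.07% of all transcripts. Over all alternatives adjusted p ran from 0.00313 to 0.511.

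CLNS1A-210, a protein-coding transcript of 953 nt that ends in a last exon of its own, was higher in the same libraries. It was at 20.3, 142 and 118 RPKM in D391N and 19.9, 18.7 and 39.0 RPKM in the controls, again with D391N library 1 among the controls. CLNS1A-211, the coding transcript whose own exon junction is printed above, was at 9.10, 56.4 and 58.5 RPKM against 10.3, 16.7 and 6.52 RPKM. Without D391N library 1 both passed, CLNS1A-210 by a log2 fold change of 2.40 (adjusted p = 0.0214) and CLNS1A-211 by 2.45 (adjusted p = 0.0245). That fit called 9.07% of all transcripts. With all 6 libraries the values were 1.51 (adjusted p = 0.344) for CLNS1A-210 and 1.57 (adjusted p = 0.333) for CLNS1A-211. Over all alternatives the adjusted p of CLNS1A-210 ran from 0.0214 to 0.605.

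CLNS1A-202, with the other printed junction, was at 61.7, 18.0 and 34.3 RPKM in D391N and 78.2, 71.8 and 74.6 RPKM in the controls, below them in every library. Its log2 fold change was -1.15 (adjusted p = 0.258). Without D391N library 1 it was -1.59 (adjusted p = 0.0376), in the same fit that called 9.07% of all transcripts. CLNS1A-207, annotated as a target of nonsense-mediated decay, was at 58.5, 0.863 and 12.4 RPKM against 51.1, 47.7 and 34.0 RPKM. The 5 coding transcripts together gave 95.9, 222 and 215 RPKM in D391N and 114, 113 and 125 RPKM in the controls. The 3 retained-intron transcripts gave 154, 11.3 and 11.7 RPKM against 158, 167 and 157 RPKM. In D391N libraries 2 and 3, then, the summed RPKM of CLNS1A was made mostly of coding transcripts, and in the other 4 libraries the retained-intron class was the larger. RPKM is scaled by transcript length, and CLNS1A-203 has only 283 nt. The classes were not compared by reads. CLNS1A-203 rested on 5.03 and 0.864 read-equivalents in D391N libraries 2 and 3. The transcript with the smallest unadjusted p, CLNS1A-209, was under 3.6 RPKM in every library (log2 fold change -1.96, adjusted p = 0.194).

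**Figure D3:**
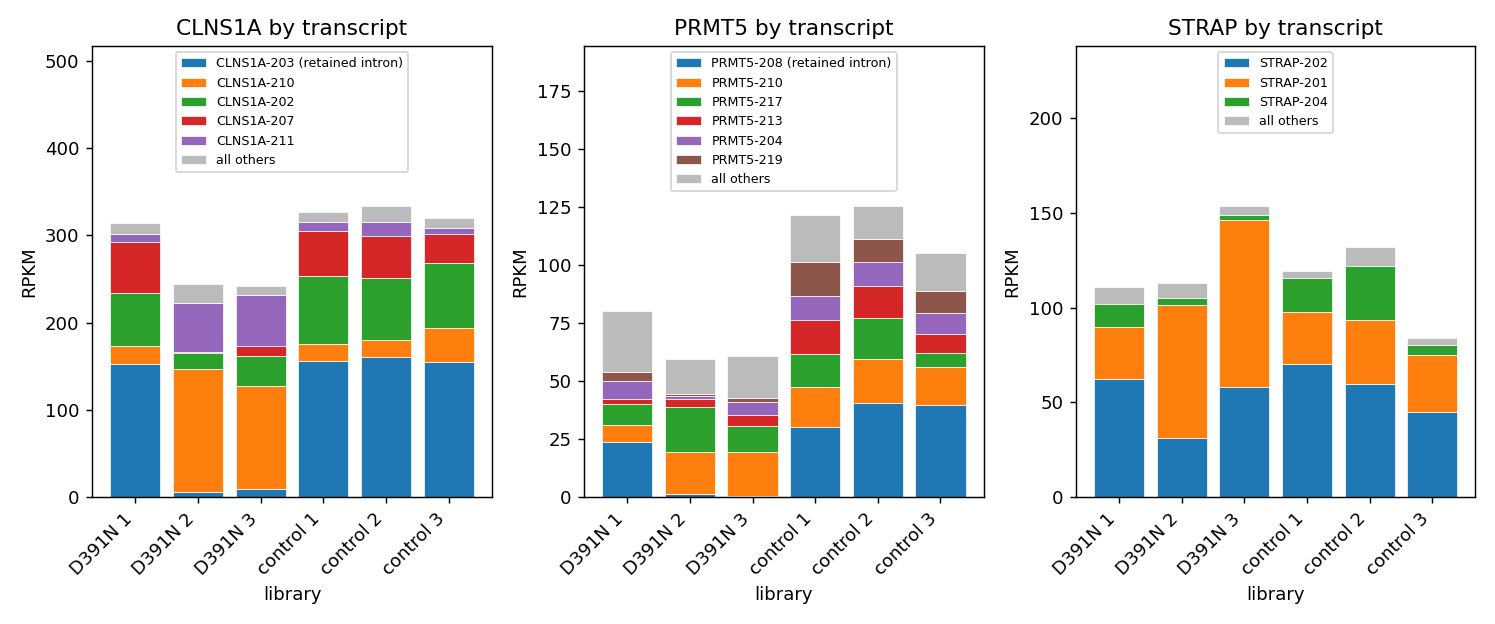
RPKM of the main transcripts of CLNS1A, PRMT5 and STRAP stacked by library, with all remaining transcripts in grey. The retained-intron transcripts at the foot of the CLNS1A and PRMT5 bars almost vanish in D391N libraries 2 and 3 (5.68 and 8.77 RPKM, and 1.28 and 0.569 RPKM), and stay near the controls in D391N library 1 (152 and 23.7 RPKM).

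STRAP (unrip) is a WD-repeat protein that joins the SMN complex through GEMIN7 (GRCh37 chr12:16035321-16056412, plus strand). Its gene level overlapped, at 111, 113 and 154 RPKM in D391N and 119.6, 132 and 84.2 RPKM in the controls (log2 fold change 0.18, 95% interval -0.37 to 0.73, adjusted p = 0.68). STRAP-201, which has the printed coding exon of 39 bases, was at 27.6, 70.6 and 88.2 RPKM in D391N and 27.4, 33.8 and 30.2 RPKM in the controls. STRAP-202, which lacks it, was at 62.1, 31.1 and 57.9 RPKM against 70.1, 59.9 and 44.7 RPKM. The share of STRAP-201 was 24.8, 62.4 and 57.4% in D391N and 22.9, 25.6 and 35.8% in the controls, with library 1 again within the controls. Its level passed without that library (log2 fold change 1.38, adjusted p = 0.0263), in a fit that called 9.07% of all transcripts. With that library it stood at 0.87 (adjusted p = 0.354, up to 0.598 in other alternatives). STRAP-204 was the transcript of this gene with the smallest p (log2 fold change -1.57, adjusted p = 0.339).

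GEMIN7, which pairs with GEMIN6 through Sm-like folds, was the least abundant of the 10 genes (GRCh37 chr19:45582453-45594776, plus strand). It was at 5.95, 2.93 and 4.83 RPKM in D391N and 7.29, 10.1 and 8.40 RPKM in the controls, with no overlap. The log2 fold change was -0.94 (SE 0.29, 95% interval -1.63 to -0.26, adjusted p = 0.142). It kept its sign in each alternative, from -1.20 to -0.66, with adjusted p from 0.0526 to 0.36. Against GEMIN6 in the same library it was 0.296, 0.126 and 0.195 in D391N and 0.316, 0.41 and 0.442 in the controls.

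GEMIN7-201, its longest coding transcript, was at 3.00, 0.748 and 1.3 RPKM in D391N and 3.36, 5.12 and 4.45 RPKM in the controls (log2 fold change -1.49, adjusted p = 0.217). Without D391N library 1 it was -1.99 (adjusted p = 0.0321), in a fit that called 9.07% of all transcripts. GEMIN7-203 was at 0.603, 0.862 and 0.792 RPKM against 1.70, 3.28 and 1.87 RPKM (log2 fold change -1.44, adjusted p = 0.171). Both were lower in every D391N library than in every control. GEMIN7-203 rested on 0.828 to 2.66 read-equivalents in the D391N libraries, so its size there is poorly fixed.

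GEMIN6 overlapped fully, at 20.1, 23.3 and 24.7 RPKM in D391N and 23.0, 24.6 and 19.0 RPKM in the controls (GRCh37 chr2:38978676-39012144, plus strand). Its log2 fold change was 0.03 (95% interval -0.35 to 0.42, adjusted p = 0.923). Its isoform shares (distance defined below) differed by 6.20% on average across the groups, less than those of the other genes for which it was computed (all but GEMIN4). GEMIN6-203 took 72.9, 69.6 and 83.3% in D391N and 76.5, 79.6 and 77.1% in the controls, and GEMIN6-201 nearly all of the rest.

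GEMIN8, which ties the GEMIN6 and GEMIN7 pair to SMN, was at 15.7, 14.6 and 12.2 RPKM in D391N and 15.1, 13.3 and 16.7 RPKM in the controls (GRCh37 chrX:14024845-14048012, minus strand). The log2 fold change was -0.09 (95% interval -0.48 to 0.30, adjusted p = 0.777), near the median of all genes, and 0.13 when each library was centred on its median. Some of its shares did separate, against 23.3% of all isoform shares in either direction. GEMIN8-205 took 57.9, 70.5 and 59.6% in D391N and 40.7, 43.6 and 48.5% in the controls, so all D391N libraries were higher. GEMIN8-202 took 4.74, 3.40 and 4.49% against 8.19, 15.3 and 8.85%, lower in all. Neither isoform ratio passed (adjusted p = 0.261 and 0.23), and here D391N library 1 was placed with its group. GEMIN8-201, second in level, was below the controls in every D391N library at 2.57, 1.84 and 2.52 RPKM against 3.71, 2.90 and 3.88 RPKM.

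GEMIN2, the subunit that holds the Sm proteins before the ring closes, was at 18.3, 18.7 and 24.7 RPKM in D391N and 20.8, 21.5 and 16.3 RPKM in the controls (GRCh37 chr14:39583489-39606177, plus strand). The groups overlapped, with a log2 fold change of 0.07 (95% interval -0.37 to 0.52, adjusted p = 0.845). Its main transcript GEMIN2-209 overlapped too, at 8.57, 7.21 and 15.0 RPKM against 10.8, 12.3 and 6.52 RPKM. GEMIN2-204, annotated to nonsense-mediated decay, took 13.9, 3.86 and 9.03% of the gene in D391N and 17.1, 15.8 and 16.4% in the controls. GEMIN2-212 was at 0.399, 5.60 and 3.44 RPKM against 0.675, 0.176 and 0.398 RPKM, but on at most 4.87 read-equivalents. Its log2 fold change was 2.19 (adjusted p = 0.299). Without D391N library 1 it was 3.24 (adjusted p = 0.0285), in a fit that called 9.07% of all transcripts.

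GEMIN5, the WD-repeat protein that recognises the snRNA, was at 16.4, 18.9 and 15.6 RPKM in D391N and 17.4, 18.1 and 19.1 RPKM in the controls (GRCh37 chr5:154266971-154317771, minus strand). It differed by -0.10 on the log2 scale (95% interval -0.44 to 0.23, adjusted p = 0.705), and 0.12 when each library was centred on its median. The full-length GEMIN5-201, well supported with 4558 windows of its own, was at 12.8, 15.8 and 13.9 RPKM against 12.8, 14.0 and 10.3 RPKM. The retained-intron GEMIN5-203 was at 3.53, 2.84 and 1.64 RPKM against 4.50, 3.94 and 8.73 RPKM, lower in all D391N libraries (log2 fold change -1.05, adjusted p = 0.272).

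DDX20 (Gemin3), a DEAD-box helicase, was at 24.7, 37.8 and 30.4 RPKM in D391N and 30.3, 32.6 and 28.5 RPKM in the controls (GRCh37 chr1:112297454-112318224, plus strand). The groups differed by 0.01 on the log2 scale (95% interval -0.44 to 0.45, adjusted p = 0.99). DDX20-205, a retained-intron transcript of 4697 nt, was at 5.22, 4.46 and 6.59 RPKM in D391N and 9.79, 11.1 and 11.7 RPKM in the controls. Every D391N library was below every control for it, library 1 included (log2 fold change -1.0, SE 0.25, adjusted p = 0.156). How many of all transcripts separate in this way is not given, and 20.7% of all genes did so. The coding DDX20-201 overlapped at 5.95, 5.94 and 9.78 RPKM against 8.62, 9.09 and 5.95 RPKM. DDX20-203 was listed at 14.2 RPKM in D391N library 2 and at 0.542 RPKM or less in the other 5 libraries, and it has no window of its own.

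GEMIN4, a partner of DDX20 in the complex, was at 8.31, 7.41 and 8.07 RPKM in D391N and 11.1, 10.8 and 8.88 RPKM in the controls (GRCh37 chr17:647661-657239, minus strand). All D391N libraries were lower, by a log2 fold change of -0.36 (95% interval -0.74 to 0.01, adjusted p = 0.23). Its one transcript above the filter, GEMIN4-201, overlapped at 6.25, 6.14 and 5.40 RPKM against 6.35, 7.36 and 5.59 RPKM (log2 fold change -0.11, adjusted p = 0.836). GEMIN4-201 took 75.2, 82.8 and 66.9% of the gene in D391N and 56.9, 68.3 and 63.0% in the controls. GEMIN4-202, second in level but under the filter and so not tested, was at 0.292, 0.0802 and 0.146 RPKM against 2.55, 0.821 and 0.70 RPKM. It was lower in every D391N library, where it rested on 0.0123 to 0.171 read-equivalents.

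Among the 52 transcripts tested none passed (0.0604% of all 54671 did), and 12 had an unadjusted p under 0.05, all lower in D391N. Over all transcripts that share was 17.6%, and 10.7% were lower. Of 51 isoform ratios none passed (0.0421% of all 45095) and 10 had an unadjusted p under 0.05 (15.6% of all), with a lowest adjusted p of 0.184. In 15 of the 51 the isoform shares of the groups did not overlap, 5 higher and 10 lower in D391N, against 23.3% of all shares.

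Pairs of libraries were also compared by the distance between their isoform shares, the percentage of a gene's level that would have to move between transcripts to turn one library into the other. For CLNS1A the mean distance was 6.63% between control libraries, 52.2% between D391N libraries and 48.4% across the groups. D391N library 1 was 5.28 to 9.86% from the controls and 65.1 to 77.5% from the other D391N libraries. For PRMT5 the means were 15.1, 41.5 and 40.4%, and for the median of 9394 genes 11.7, 21.1 and 20.3%. The high mean among D391N libraries rests on library 1 for CLNS1A, and only in part for PRMT5. For PRMT5 the control libraries were 13.3 to 17.0% apart. D391N libraries 2 and 3 were 14.1% apart for CLNS1A and 60.0 to 78.1% from the controls, and for PRMT5 26.7% apart and 40.3 to 57.4% from the controls.

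**Figure D4:**
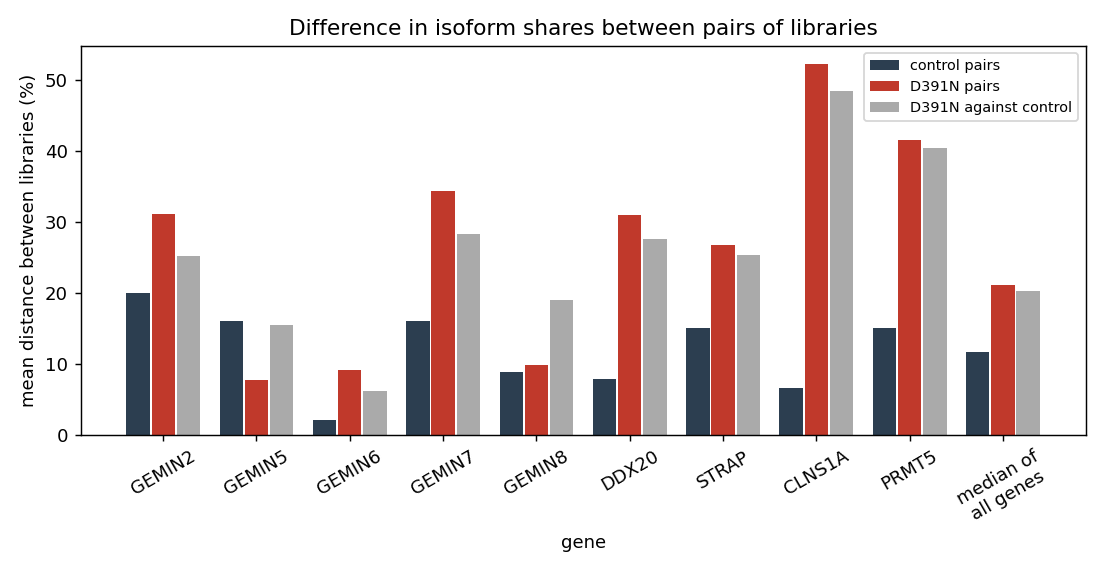
Mean distance in isoform shares (percent) between pairs of control libraries, pairs of D391N libraries and pairs across the groups, for the 9 genes with at least 2 transcripts above the filter and the median of all such genes. In CLNS1A the D391N pairs differ by 52.2% and the control pairs by 6.63%, while in GEMIN8 the distance across groups (19.0%) is above both distances within groups (8.82 and 9.84%).

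In 13 of the 51 shares D391N library 1 alone lay within the range of the controls and libraries 2 and 3 lay on one side of it, against 14.5% of all shares. For library 2 the count was 3 (3.41% of all) and for library 3 it was 2 (7.53% of all). Without D391N library 1, 10 transcripts of these genes passed (9.07% of all did) and 7 isoform ratios (7.41% of all). The 10 were 4 of CLNS1A, 3 of PRMT5 and 1 each of GEMIN2, GEMIN7 and STRAP, chosen for naming after that fit.

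Short length was set beside this pattern. Over all tested transcripts the median log2 fold change was -0.80 under 200 nt and -0.21 from 200 to 300 nt. The 2 members of that second class, CLNS1A-203 and PRMT5-208, had a median of -3.35. By library, the median deviation under 200 nt was 0.31, -0.84 and -0.69 in D391N libraries 1, 2 and 3, and 0.28 to 0.65 in the controls. From 200 to 300 nt it was 0.08, 0.11 and -0.43, against 0.08 to 0.22 in the controls. In the class of CLNS1A-203 and PRMT5-208, then, library 2 lay within the controls and only library 3 was lower. Transcripts annotated as retained introns had a median of -1.0 in the 9 tested from these genes, of which 5 were below 0, and 0.00 in all 9350, and the 31 coding ones -0.14 against -0.10. PRMT5-DT, a non-coding gene that neighbours PRMT5, was at 6.96, 0.277 and 1.56 RPKM in D391N and 11.6, 10.6 and 7.76 RPKM in the controls, also with library 1 nearest to them. The part of length, of the neighbour and of that library in the isoform results was not tested. Pseudogenes of the 10 genes were listed at 2.65 RPKM or less, and the antisense gene PRMT5-AS1 at 1.15 RPKM or less. Whether the alignment used strand was not stated.

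A list of 27 further genes, chosen by function, held 22 genes of the snRNP route and 5 other arginine methyltransferases, and none was called. Unadjusted p was under 0.05 in 9 of the 27 (22.7% of all genes), 6 higher (6.76% of all) and 3 lower (16% of all), and in 8 of the 22, 5 higher and 3 lower. The median log2 fold change was 0.11 over the 27 and 0.17 over the 22, against -0.09 over all genes. Every D391N library lay above every control in 8 of the 27 and 7 of the 22 (10.5% of all genes) and below in 6 and 5 (20.7% of all genes). The smallest p-values belonged to PRMT3, an arginine methyltransferase of ribosomal protein outside the route, at 38.0, 37.6 and 37.3 RPKM against 27.9, 26.6 and 23.2 RPKM (log2 fold change 0.54, adjusted p = 0.109), and to XPO1. XPO1 is the export receptor that carries snRNAs out of the nucleus, and it was at 268, 423 and 361 RPKM against 189, 205 and 152 RPKM (log2 fold change 0.93, adjusted p = 0.111).

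The counts by role that follow stand against 10.5% of all genes above the controls in every D391N library and 20.7% below. Of the 4 genes of snRNA export, XPO1 and PHAX lay above the controls in all D391N libraries and NCBP2 below. Of the 3 genes of cap hypermethylation and import, TGS1 and KPNB1 lay above. Of the 7 Sm proteins, the cargo of the route, SNRPB, SNRPD2 and SNRPG lay below and none above in the summed RPKM. With the length-weighted sum SNRPD1 lay above, at 217, 399 and 347 RPKM × kb against 186, 202 and 182 (log2 fold change 0.71, adjusted p = 0.094), and the same 3 genes lay below. In summed RPKM the log2 fold change of SNRPD2 was -1.17 (adjusted p = 0.14), that of SNRPG -0.72 and that of SNRPB -0.50. Among partners of PRMT5, RIOK1 lay above (log2 fold change 0.64, adjusted p = 0.112), and WDR77 and COPRS overlapped. SMN1 overlapped and SMN2 lay above, with log2 fold changes of 0.11 and 0.25. These near-identical copies share most reads, so their separate values are uncertain. COIL, of the Cajal body, lay above. Of the 2 U7 Sm-like proteins, LSM11 lay below and LSM10 overlapped. Of the 5 other arginine methyltransferases, PRMT3 lay above and PRMT7 below. PRMT7 had a log2 fold change of -0.38 (adjusted p = 0.232) in summed RPKM and -0.61 (adjusted p = 0.0546) with the length-weighted sum.

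**Figure D5:**
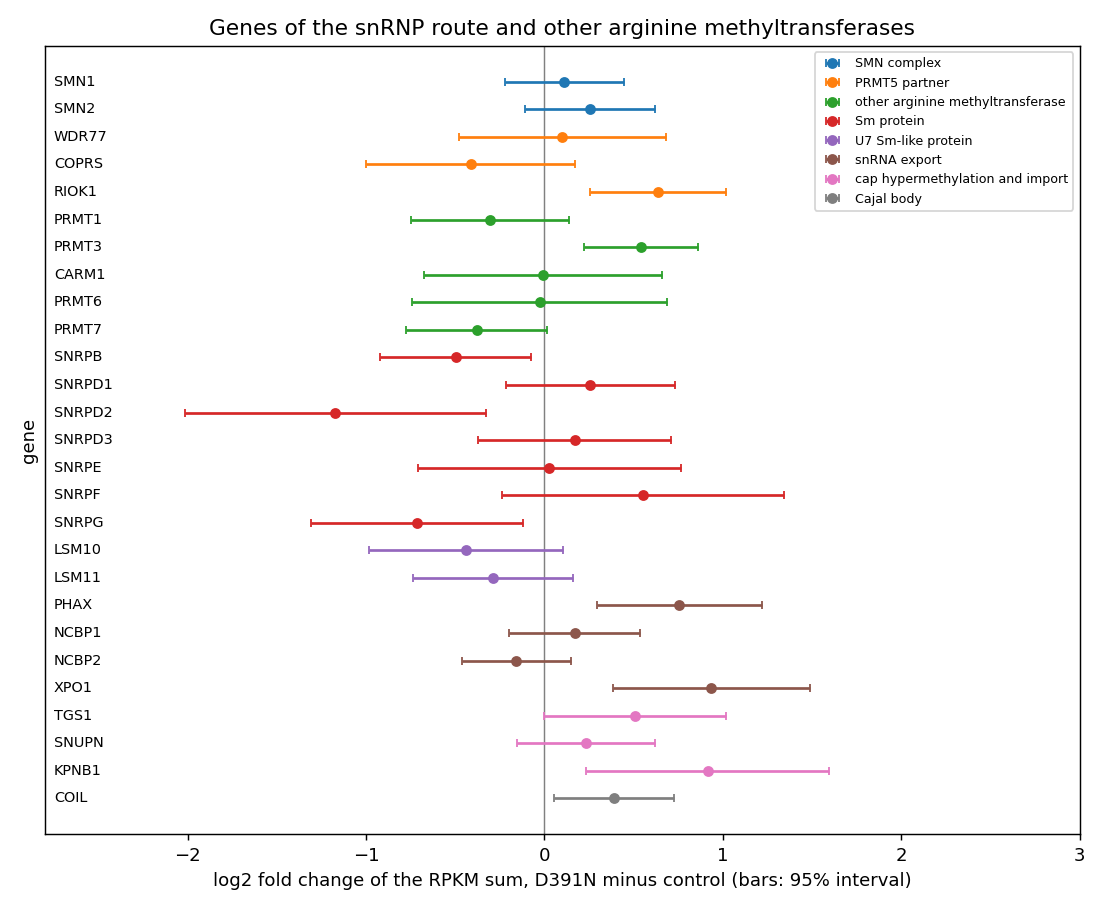
Log2 fold change of the summed RPKM (D391N minus control) with 95% interval for 22 other genes of the snRNP route and 5 other arginine methyltransferases, coloured by role. No gene passed the adjusted threshold, and the intervals of 9 exclude 0 (unadjusted p under 0.05, as in 22.7% of all genes), 6 above it (such as XPO1 at 0.93) and 3 below it (such as SNRPD2 at -1.17).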

How the data were processed

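RNA was depleted of rRNA and sequenced as 50-nt single reads from 3 D391N and 3 control libraries. Per the study's methods, the authors removed adapters (cutadapt), mapped the reads with Segemehl against Ensembl coding and non-coding transcripts of build hg38, and obtained transcript levels from BitSeq. Versions are not given in the sources used here. The deposited values are the posterior mean of natural log RPKM and its posterior variance, a score of precision, for each transcript and library. The authors' differential test needs posterior samples and was not repeated.

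RPKM was taken as the exponential of the deposited mean and summed by gene. Levels were tested as log2(RPKM + 0.1), so fold changes of low transcripts are understated, and features averaging under 1 RPKM over the 6 libraries were left out. The model was limma 3.58.1 (R 4.3.3) with empirical Bayes and trend over all features, two-sided, with Benjamini-Hochberg adjustment and a threshold of 0.05. Isoform ratios (a transcript over the other transcripts of its gene) were fitted without trend. Single values were compared by exact permutation, which cannot go below 0.1 with 3 against 3. Read-equivalents were estimated from the posterior variance, so they score precision and are not counts of reads or a measure of depth. No counts are known, so no counting interval is given. Transcript names, lengths, sequences and positions came from GENCODE (GRCh37), matched by transcript ID for all 85 transcripts. Simulated data were used to test the scripts. PECAM1 was a marker without a matching symbol.

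The members and gene lists were chosen with earlier results of these data known. All 10 genes are named, with their 2 most abundant transcripts and the tested transcript of smallest p, and of the other pathway genes the 2 of smallest p. Further transcripts and genes were named after their values were seen. Alternatives covered the pseudocount, the filter, scaling, the replicate block, the trend, robust fitting and leaving out each library. The length-weighted sum, which follows reads, and the sum over transcripts of at least 300 nt were added after the data had been seen. Replicate numbers did not pair the libraries.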

Additional observations from a re-analysis of the deposited data

How the results depend on the processing

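With all 6 libraries and the settings of the report, 29 genes, 33 transcripts and 19 isoform ratios passed in the whole table. Genes passing were 16 with a pseudocount of 0.01 RPKM and 61 with 1 RPKM, 6 at a mean of at least 5 RPKM, 18 with no filter, 14 with median centring, 17 with quantile normalization, 2 with the replicate block, 19 over transcripts of at least 1 RPKM, and, by the alternatives added after seeing the data, 646 with the length-weighted sum and 291 over transcripts of at least 300 nt. Transcripts passing were 142 with a pseudocount of 1, 17 at a mean of at least 5 RPKM, 18 with no filter, 7 with the replicate block and 52 without trend. Isoform ratios passing were 6 and 52 with pseudocounts of 0.01 and 1, 46 at a mean of at least 0.1 RPKM, 32 at 5 RPKM, 0 with no filter, 11 with median centring, 31 with quantile normalization, 0 with the replicate block, 9 with robust fitting and 6 by the logit of the share. Their fit has no trend, so none was dropped. Leaving out 1 library gave 2 to 2261 genes, 2 to 4961 transcripts and 0 to 3342 isoform ratios, the highest each time without D391N library 1. The cause of these shifts was not tested.

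Of the 10 genes, PRMT5 was the 1 that passed with the length-weighted sum, and leaving out a library gave 0 to 1 of the 10 genes, 0 to 10 of their transcripts and 0 to 7 of their isoform ratios. The median of the 10 genes was 0.12 with median centring. PRMT5, GEMIN7 and GEMIN4 stayed lower in D391N in all alternatives run. The other 7 genes turned direction in at least 1 alternative and passed in none. CLNS1A was at 0.062 with the length-weighted sum and 0.29 over transcripts of at least 300 nt. DDX20 was at -0.19 with the length-weighted sum. GEMIN5 was at 0.12 with median centring, 0.0022 with quantile normalization and 0.16 with the length-weighted sum, and GEMIN8 at 0.13, 0.033 and 0.15. Over the fits that left out 1 library, DDX20 ran from -0.15 to 0.16, GEMIN2 from -0.064 to 0.15, GEMIN6 from -0.074 to 0.12, GEMIN8 from -0.17 to 0.013 and STRAP from -0.013 to 0.31. Transcript levels ran from -0.047 to 0.34 for GEMIN6-201, -0.15 to 0.089 for GEMIN6-203, -0.43 to 0.067 for STRAP-202, -0.27 to 0.25 for GEMIN2-209 and -0.61 to 0.069 for PRMT5-210. Isoform log2 ratios ran from -0.065 to 0.49 for GEMIN6-201, -0.50 to 0.17 for DDX20-201, -0.49 to 0.066 for GEMIN6-203 and -0.41 to 0.24 for GEMIN2-209. GEMIN6-203 was at 0.055 with median centring, where the isoform ratio of GEMIN2-209 was 0.031, and the level of GEMIN2-209 was -0.026 with quantile normalization.

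The replicate numbers share no stated culture, day or lane. Deviations of same-numbered libraries from their group means correlated at 0.07, 0.22 and -0.11 across genes, and 2 of the 6 libraries correlated best with their own number, so the numbers were not taken as pairs. With the replicate block 2 genes passed, none of them among the 10, and PRMT5 kept its log2 fold change of -0.82 (adjusted p = 0.174). Low precision limits the isoform results, since several transcripts rest on under 3 read-equivalents in a library and have few or no 50-base windows of their own.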
